A study of Mus with 5 samples.

Results

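The genes described here are 8 genes of the Slit-Robo and semaphorin-plexin guidance pathways: the ligand genes *Slit2* (ENSMUSG00000031558), *Slit3* (ENSMUSG00000056427), *Sema3a* (ENSMUSG00000028883), *Sema3c* (ENSMUSG00000028780) and *Sema3d* (ENSMUSG00000040254), and the receptor genes *Robo1* (ENSMUSG00000022883), *Robo2* (ENSMUSG00000052516) and *Plxnd1* (ENSMUSG00000030123). They were taken by Ensembl identifier, and all 8 are among the 12857 genes with values and passed the filter on low values. The list was selected on a view of the differences between genotypes in these same values, so those differences are given here as descriptions, without p-values, and where genes of the list are counted as called in the fit over all genes, the count is a description too. RNA came from ventricles and valves of E14.5 mouse hearts with the atria removed, in pools of 4 hearts, with 3 transgenic pools and 2 wild type (WT) pools. The transgenic hearts were *Nkx2.5Cre/+;Bmp2tg/+*: Cre made from the *Nkx2.5* locus, active in cardiac progenitors and the myocardium, removes a floxed stop, after which the CAG promoter placed at *Rosa26* transcribes a mouse *Bmp2* cDNA joined to eGFP. The labels give the other group only as WT. For its lethality counts the paper bred *Bmp2tg/+* males with *Nkx2.5Cre/Cre* females, and lists the embryos without the transgene as *Nkx2.5Cre/+;Bmp2+/+*. Whether the WT pools came from that cross, and so carried the Cre allele, is not stated in the sources used here. The authors left out 1 further WT pool.

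Slits are secreted proteins that bind Robo receptors on the cell surface, and were first known for turning growing axons away from the midline. In the embryonic heart the same ligands and receptors take part in forming the pericardium, the septa and the valves. Class 3 semaphorins are secreted too. Most of them bind a neuropilin, which pairs with a plexin that carries the signal into the cell, and they guide axons, neural crest cells and endothelial cells. Among those studied here, Sema3a patterns the sympathetic innervation of the heart and Sema3c guides neural crest cells into the outflow tract. Plexin D1 is the plexin of endothelial cells.

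Values are counts per 1000000 reads (CPM) of a scaled library size. Summed over the 12857 genes with values, the 5 libraries came to 7427905 to 10564780 reads, and 1 read was worth 0.0956 to 0.134 CPM. A count of 0 allows up to 3 reads, or 0.287 to 0.402 CPM, and none of the 8 genes came near that limit, with 125 to 2791 reads per library. Limits and intervals of this kind cover only the error of counting, because reads carry no molecular identifiers. CPM are not divided by transcript length, so levels are compared between libraries for each gene and not between genes. Differences were estimated as log2(CPM + 0.5) with limma, fitted over all 12857 genes, and are given as transgenic minus WT with their standard error. On this scale the change of genes with few reads is understated. As a check of the labels, *Bmp2* had 23.0, 27.1 and 23.3 CPM in transgenic pools 1, 2 and 3, against 14.1 and 10.2 CPM in WT pools 1 and 2 (log2 difference 0.99, limma adjusted p = 0.000712, higher in 3 of 3 pools). These values do not separate reads of the transgene from those of the endogenous gene.

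Among the 8 genes the ligand genes *Slit2* and *Sema3a* were lowest relative to WT, with ratios of the transgenic to the WT mean of 0.497 and 0.554. *Slit3*, *Plxnd1* and *Sema3c* followed, with ratios of 0.721, 0.774 and 0.826. *Robo2* and *Sema3d* had ratios of 0.966 and 0.992, and *Robo1* was the only one of the 8 above WT, with a ratio of 1.13. The 3 transgenic pools lay apart from both WT pools for 6 of the 8 genes, 5 of them lower and 1 higher, where 35.7% of all genes were separated in this way (18.0% lower and 17.7% higher). With limma and a threshold of 0.05 on p-values adjusted over all genes (Benjamini-Hochberg), 4 of the 8 genes were called, all 4 lower: *Slit2*, *Slit3*, *Sema3a* and *Plxnd1*. The share over all genes was 2.82% (1.59% lower and 1.22% higher). Since the list was made with this comparison in view, nothing is read from these counts. The median log2 difference was -0.32 over the 8 genes and 0.00452 over all genes. Without transgenic pool 2, *Slit3* was not called and the count was 3 of 8. Without WT pool 1 or WT pool 2 only *Slit2* was called, and limma without its variance trend called 0 of the 8 genes and 10 genes in all.

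**Figure D1:**
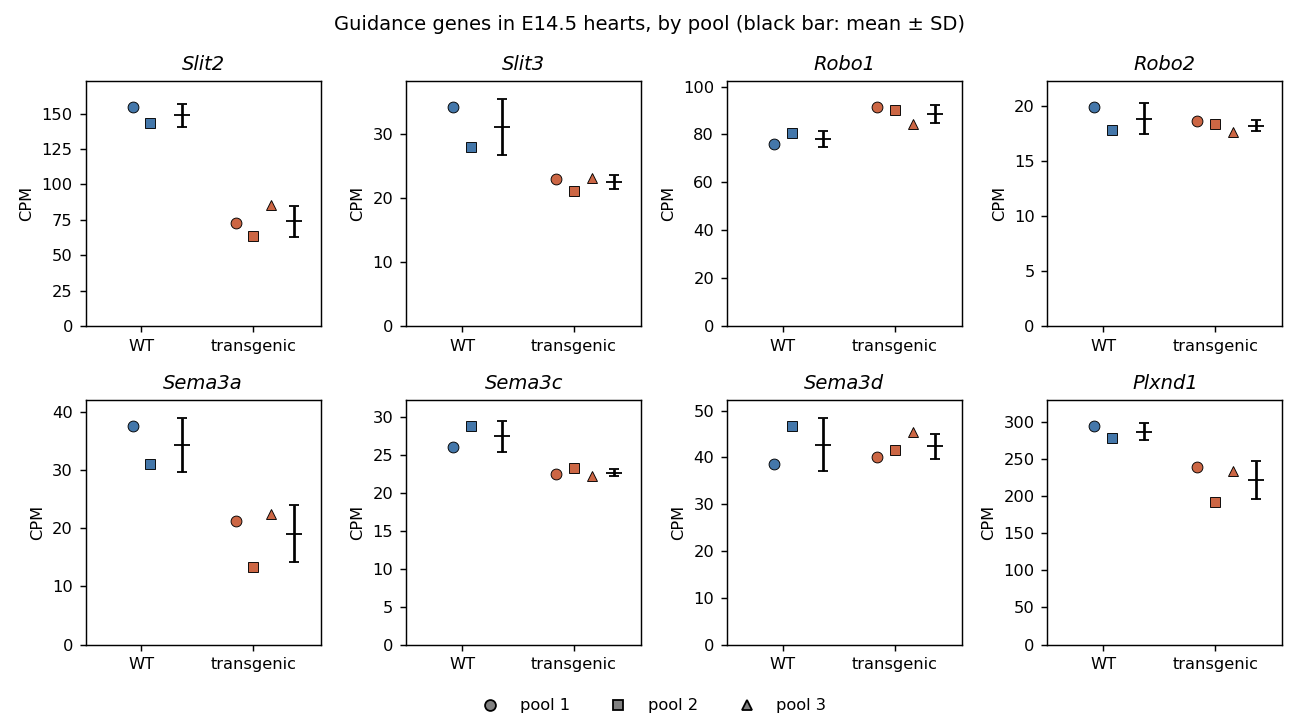
CPM of each of the 8 guidance genes in each pool (blue, WT; orange, transgenic; marker shape, pool number), with the mean ± SD of each genotype in black and every vertical axis starting at 0. The transgenic pools of *Slit2* lie between 63.9 and 85.4 CPM, below both WT pools, whereas the pools of *Robo2* and *Sema3d* overlap.

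*Slit2* encodes one of the secreted Robo ligands. It lies on chromosome 5 of GRCm38.p6, from 47981291 to 48307735 (RefSeq), with the microRNA gene *Mir218-1* (48223942 to 48224051) inside its span. In WT hearts *Slit2* had 155 and 143 CPM, from 1462 and 1069 reads. In transgenic pools 1, 2 and 3 it had 72.9, 63.9 and 85.4 CPM, from 762, 595 and 683 reads. Every transgenic pool was below both WT pools, and the gap of 57.9 CPM between the nearest pools of the 2 genotypes was wider than the 11.3 CPM between the WT pools. The means were 74.1 ± 10.8 CPM (SD, n = 3 pools) and 149 ± 7.98 CPM (SD, n = 2 pools). The log2 difference of *Slit2* was -1.01 (standard error 0.09), with rank 26 from the lowest of the 12857 genes. Leaving out single pools gave -1.12 to -0.91. The transgenic pools of *Slit2* differed among themselves by more than counting of reads alone gives, with a chi-square of 13.6 per degree of freedom.

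*Slit3*, which encodes a second secreted Robo ligand, showed a smaller difference in the same direction. It lies on chromosome 11, from 35121456 to 35708507, and holds *Mir218-2* (35616816 to 35616925) within its span. WT hearts had 34.1 and 28.0 CPM of *Slit3*, and transgenic hearts 23.0, 21.2 and 23.1 CPM. The pools of the 2 genotypes did not overlap, but the WT pools lay 6.13 CPM apart, more than the 4.88 CPM between the nearest pools of the 2 genotypes. The log2 difference of *Slit3* was -0.46 (standard error 0.10), from -0.60 without WT pool 2 to -0.32 without WT pool 1. The transgenic pools were close together, at 22.4 ± 1.10 CPM (SD, n = 3), with a chi-square of 0.492 per degree of freedom against counting alone.

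The Robo receptor genes did not share this direction. *Robo1* (chromosome 16, 72027518 to 73047491) had 91.3, 90.3 and 84.3 CPM in transgenic hearts and 75.8 and 80.6 CPM in WT hearts. All transgenic values exceeded the WT values, by 3.73 CPM at the nearest, against 4.75 CPM between the WT pools. The log2 difference of *Robo1* was 0.18 (standard error 0.07), and 0.14 to 0.22 when single pools were left out. *Robo2* (chromosome 16, 73891976 to 75447443) had 18.6, 18.4 and 17.6 CPM in transgenic and 19.9 and 17.8 CPM in WT hearts, which overlap. Its log2 difference was -0.05 (standard error 0.11), with a 95% interval of -0.27 to 0.18 that reaches to both sides of 0.

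Within each library, the Slit sum was set against the Robo sum, a ratio that library scaling does not change. Because CPM are not per length, only its change between libraries can be read. *Slit2* and *Slit3* together came to 1.97 and 1.74 times *Robo1* and *Robo2* together in WT pools 1 and 2, and to 0.871, 0.783 and 1.07 times in transgenic pools 1, 2 and 3. The mean ratio was 0.906 ± 0.144 (SD, n = 3) in transgenic and 1.86 ± 0.164 (SD, n = 2) in WT hearts. The Slit sum was 96.5 ± 11.8 CPM (SD, n = 3) in transgenic and 180 ± 12.3 CPM (SD, n = 2) in WT hearts, and the Robo sum 107 ± 4.32 CPM (SD, n = 3) and 97.0 ± 1.91 CPM (SD, n = 2). *Slit2* also made up less of the Slit sum in transgenic pools. Its share was 81.9% (95% Wilson interval 80.1 to 83.6) and 83.6% (81.5 to 85.6) in the WT pools, and 76.0% (73.3 to 78.6), 75.1% (72.0 to 78.0) and 78.7% (75.8 to 81.3) in the transgenic pools. The intervals of transgenic pool 3 and WT pool 1 overlap, and those of transgenic pools 1 and 2 lie below both WT intervals.

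**Figure D2:**
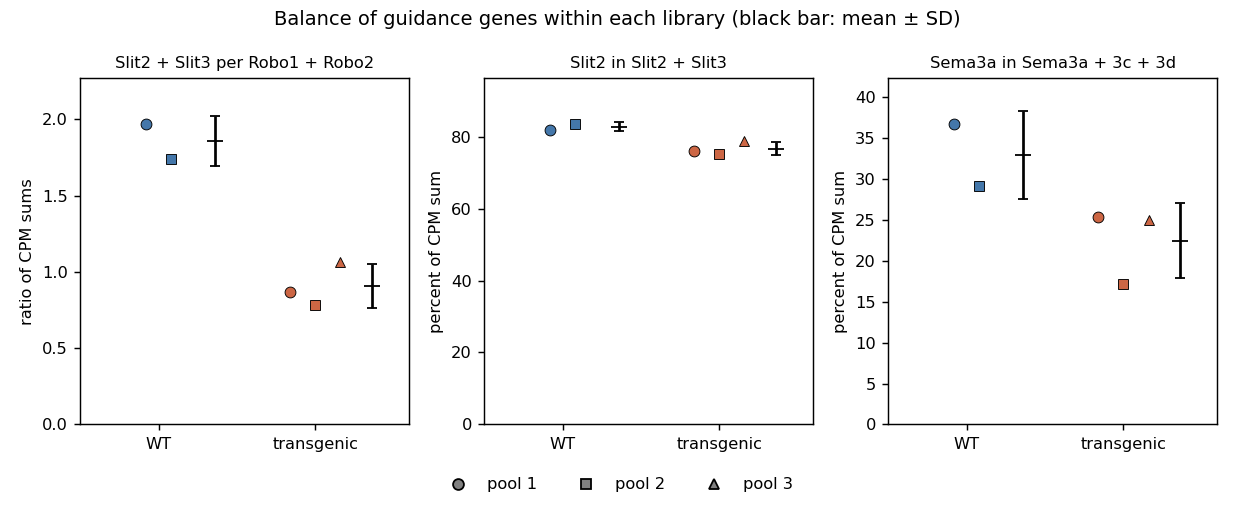
Ratio of the summed CPM of *Slit2* and *Slit3* to that of *Robo1* and *Robo2*, percent of the Slit sum that is *Slit2*, and percent of the sum of *Sema3a*, *Sema3c* and *Sema3d* that is *Sema3a*, in each pool (blue, WT; orange, transgenic; black, mean ± SD; axes start at 0). In all 3 panels the transgenic pools lie below both WT pools, with the ratio of Slit to Robo at 0.783 to 1.07 against 1.74 and 1.97.

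*Sema3a*, *Sema3c* and *Sema3d* lie on the same chromosome, chromosome 5, and differed from each other in their values. *Sema3a*, a secreted repellent of axons, spans 13124822 to 13603485. WT hearts had 37.6 and 31.1 CPM of *Sema3a*, and transgenic pools 1, 2 and 3 had 21.2, 13.4 and 22.5 CPM. All 3 transgenic pools were below both WT pools. Transgenic pool 2 was the lowest, with 125 reads and a 95% Poisson interval of 11.2 to 16.0 CPM that lies below the values of both other transgenic pools. The means of *Sema3a* were 19.1 ± 4.92 CPM (SD, n = 3) and 34.4 ± 4.62 CPM (SD, n = 2), with a log2 difference of -0.86 (standard error 0.17). The difference was -0.63 without transgenic pool 2 and -0.998 without WT pool 2.

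*Sema3c*, which encodes the semaphorin of the outflow tract and the neural crest, spans 17574816 to 17730268. Transgenic hearts had 22.5, 23.2 and 22.3 CPM of *Sema3c*, and WT hearts 26.01 and 28.8 CPM. The transgenic pools were close together and all below WT, by 2.82 CPM at the nearest, about the distance of 2.81 CPM between the WT pools. The log2 difference of *Sema3c* was -0.27 (standard error 0.10), between -0.34 and -0.20 with each pool left out. *Sema3d*, which encodes a semaphorin that acts on endothelial cells, spans 12383161 to 12588953. Transgenic hearts had 40.2, 41.7 and 45.4 CPM of *Sema3d*, and WT hearts 38.7 and 46.8 CPM. All 3 transgenic values of *Sema3d* lay between the 2 WT values. Its log2 difference was -0.01 (standard error 0.09), with a 95% interval of -0.20 to 0.19.

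The make-up of the sum of the 3 class 3 semaphorins moved with *Sema3a*. Of that sum, *Sema3a* made up 36.8% (95% Wilson interval 33.8 to 39.9) and 29.1% (26.1 to 32.4) in the WT pools. In transgenic pools 1, 2 and 3 it made up 25.3% (22.5 to 28.3), 17.1% (14.6 to 20.1) and 24.97% (21.9 to 28.3). The transgenic shares were all below both WT shares, but the intervals of transgenic pools 1 and 3 overlap that of WT pool 2. The 2 WT pools differed by more than their intervals. The sum of the 3 genes was 84.1 ± 5.95 CPM (SD, n = 3) in transgenic and 105 ± 3.08 CPM (SD, n = 2) in WT hearts.

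*Plxnd1*, the receptor gene of endothelial cells, lies on chromosome 6, from 115954811 to 115995339. WT hearts had 295 and 279 CPM of *Plxnd1*, and transgenic pools 1, 2 and 3 had 240.0, 193 and 234 CPM. All transgenic pools were below both WT pools, by 39.2 CPM at the nearest, against 15.9 CPM between the WT pools. The log2 difference of *Plxnd1* was -0.38 (standard error 0.08), and it was -0.28 without transgenic pool 2. In whole tissue, fewer cells of a type and less RNA per cell cannot be told apart.

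Endothelial markers were set beside *Plxnd1*. Of 6 such markers, *Cdh5*, *Kdr* and *Tie1* had an identifier paired with their name, and all 3 pairs come from the study's own list of changed genes. *Cdh5* encodes the cadherin of endothelial junctions, *Kdr* a VEGF receptor, and *Tie1* an endothelial receptor kinase. Markers outside the list of changed genes had no paired identifier, so only genes picked as changed were used. Ratios to such genes cannot show how *Plxnd1* stands to endothelial markers outside the list. None of *Cdh5*, *Kdr* and *Tie1* was at 0 in any pool. Limma called *Kdr* and *Tie1*, while *Cdh5* was not past the threshold (limma adjusted p = 0.0563). The sum of *Cdh5*, *Kdr* and *Tie1* came to 506, 426 and 499 CPM in transgenic hearts and to 603 and 590.2 CPM in WT hearts. Their log2 differences were -0.25, -0.46 and -0.31. *Plxnd1* per unit of that sum was 0.475, 0.452 and 0.468 in transgenic hearts against 0.490 and 0.473 in WT, and here the genotypes overlap, with means of 0.465 ± 0.0117 (SD, n = 3) and 0.481 ± 0.0117 (SD, n = 2). *Slit2* per unit of the same sum was 0.144, 0.150 and 0.171 against 0.256 and 0.243, which do not overlap. *Sema3a* per unit of that sum was 0.0420, 0.0315 and 0.0451 against 0.0624 and 0.0527.

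The markers of smooth muscle and pericytes that could be looked at had lower values as well. They too entered as genes picked as changed. Limma called *Myh11* and *Rgs5*, while *Pdgfrb* was not past the threshold (limma adjusted p = 0.0519). *Myh11*, a smooth muscle myosin, *Pdgfrb*, a growth factor receptor of mural cells, and *Rgs5*, a pericyte marker, were the 3 of 5 with a paired identifier, again all from the study's list. Summed, they had 138, 138 and 157 CPM in transgenic hearts against 188 and 185 CPM in WT. *Slit2* per unit of the mural sum was 0.527, 0.464 and 0.544 against 0.820 and 0.775 in WT, and *Sema3a* per unit of it was 0.154, 0.0974 and 0.143 against 0.200 and 0.168. Both ratios to this sum remained below WT in every transgenic pool. *Myh11* added little to the sum, with means of 8.09 CPM in transgenic and 13.5 CPM in WT hearts. Its log2 difference was -0.71, against -0.24 for *Pdgfrb*, -0.48 for *Rgs5* and -0.86 for *Sema3a*. The ratios to the sum therefore do not show how *Sema3a* stands to *Myh11* alone. *Tbx18*, the 1 of 5 epicardial markers with a paired identifier, was at 87.2 ± 0.995 against 67.5 ± 3.08 CPM (SD, n = 3 and 2), and *Myl7*, 1 of 4 atrial markers and the only paired one, was at 713 ± 137 against 379 ± 7.71 CPM. For cardiomyocytes, mesenchyme, nerves and red cells 0 of the listed markers had a paired identifier, so the label of the tissue was not checked with them. The part of any cell type in the values of *Slit2*, *Sema3a* or *Plxnd1* was not tested.

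**Figure D3:**
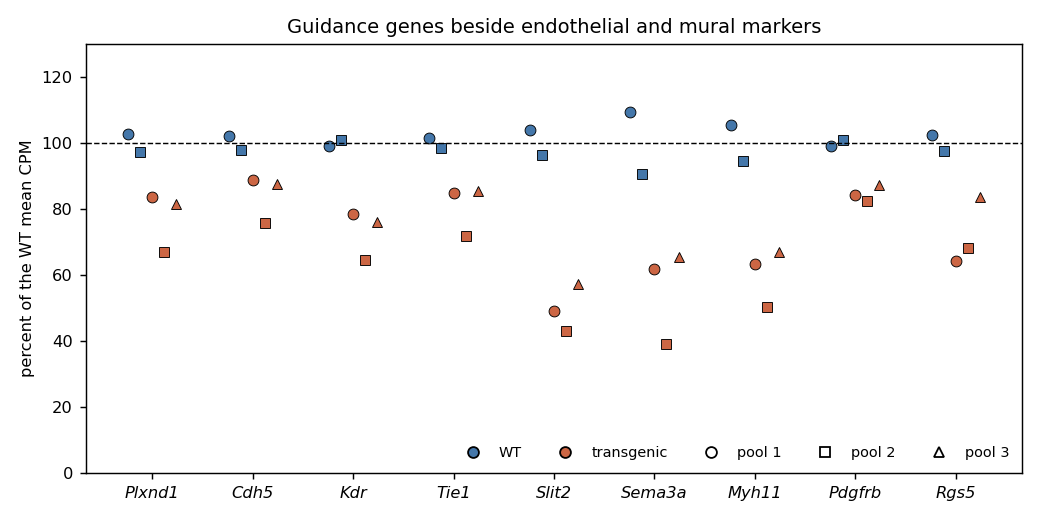
CPM of *Plxnd1*, *Slit2* and *Sema3a* beside 3 endothelial markers (*Cdh5*, *Kdr*, *Tie1*) and 3 mural markers (*Myh11*, *Pdgfrb*, *Rgs5*), as percent of the WT mean of each gene (dashed line) in each pool (blue, WT; orange, transgenic; marker shape, pool number). For all 9 genes the transgenic pools lie below both WT pools, as for 18.0% of all genes. Within each transgenic pool *Slit2* and *Sema3a* lie lower than the endothelial markers. The markers come from the study's list of changed genes and the other 3 were chosen with this comparison in view. Nothing is read from these counts or positions.

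Transgenic pool 2 was the lowest of the 3 transgenic pools for *Slit2*, *Slit3*, *Sema3a* and *Plxnd1*, 4 of the 5 genes whose transgenic pools were all below WT, the exception being *Sema3c*. The same pool was the lowest for 143 of the 205 genes that limma called lower in transgenic hearts (69.8%), against 34.2% of all genes. It was the highest for 100 of the 157 genes called higher (63.7%), against 34.0% of all genes. It also had the highest *Bmp2* value, 27.1 CPM against 23.0 and 23.3 CPM. The 95% Poisson interval of that value, 23.8 to 30.6 CPM, overlaps the intervals of transgenic pools 1 and 3. The atrial marker *Myl7* was highest in transgenic pool 2 too, at 869 CPM against 653 and 617 CPM. Whether the level of *Bmp2* bears on the other values of this pool was not tested. Over all pools left out in turn, the sign of the log2 difference of 6 genes did not change, and it changed for *Robo2* and *Sema3d*. The 6 are the genes whose pools did not overlap between genotypes, as for 35.7% of all genes. For such genes leaving out 1 pool cannot change the sign, so this adds nothing to that separation.

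**Figure D4:**
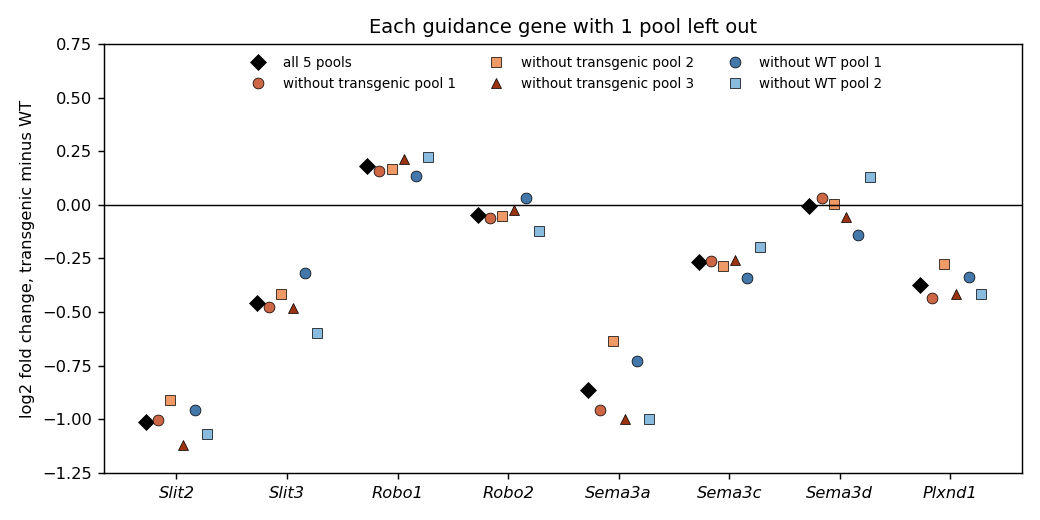
Log2 difference between genotypes (transgenic minus WT, of log2(CPM + 0.5)) for each of the 8 genes, from all 5 pools (black diamond) and after omitting single pools. *Slit2* stays between -1.12 and -0.91, *Sema3a* moves most, from -0.998 to -0.63, and *Robo2* and *Sema3d* cross 0.

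Other genes of these pathways came from lists of Slit and Robo genes, semaphorins, plexins, neuropilins, their effectors, netrins and ephrins, with 72 genes in all. An identifier was paired with the name for 12 of the 72, and every pairing came from the study's list of genes changed in these same libraries. The count of called genes among the 12 is therefore not independent evidence of a direction, and the others were not analysed here. Of the 12, limma called 8 lower and 2 higher in transgenic hearts (adjusted over all genes, of which 1.59% and 1.22% were called), and 2 were not past the threshold. Their median log2 difference was -0.45. The calls depend on the libraries: without transgenic pool 2, 5 of the 12 were called, and without WT pool 1 or WT pool 2 there were 1 and 0. Without the variance trend limma called 0 of the 12, with 1846 of all genes at an unadjusted p under 0.05, against 2275 with the trend.

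Of the 27 other semaphorin, plexin and neuropilin genes, 7 had a paired identifier, and all 7 were lower. *Sema3g*, a secreted class 3 semaphorin of the vasculature, had 8.70, 6.12 and 8.25 CPM in transgenic hearts and 11.3 and 13.4 CPM in WT hearts, a log2 difference of -0.66 (standard error 0.17, limma adjusted p = 0.0456). It was lower in 3 of 3 transgenic pools and near the threshold of 0.05. The membrane-bound *Sema5a* and *Sema6d* and the membrane-anchored *Sema7a* were lower, with log2 differences of -0.31, -0.28 and -0.61 (limma adjusted p = 0.0335, 0.0213 and 0.0253). *Plxna2* and *Plxna4*, which encode class A plexins that work with neuropilins, were lower too, with log2 differences of -0.34 and -0.46 (limma adjusted p = 0.0213 and 0.00815).

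*Nrp2*, the neuropilin gene with a paired identifier, had the lowest adjusted p of these 7. Transgenic hearts had 34.3, 29.0 and 33.3 CPM of *Nrp2* and WT hearts 43.8 and 56.4 CPM, a log2 difference of -0.62 (standard error 0.11, limma adjusted p = 0.00402). The genotypes did not overlap, although the WT pools lay 12.7 CPM apart. *Srgap3*, whose protein binds the inner part of Robo receptors, was at 5.55, 4.83 and 7.13 CPM against 8.35 and 10.5 CPM and did not pass the threshold (limma adjusted p = 0.0720).

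Paired identifiers covered 2 of 8 effectors, 1 of 10 netrin and netrin receptor genes, and 1 of 21 ephrin and Eph genes. All came from the study's list of changed genes, so they show no direction for these families. *Dpysl2*, a collapsin response mediator that works downstream of Sema3a, was higher, with 61.3, 73.6 and 70.2 CPM in transgenic against 54.3 and 47.7 CPM in WT hearts, a log2 difference of 0.42 (limma adjusted p = 0.0136). *Mical3*, of the MICAL family of plexin effectors, fell by 0.50 on the log2 scale (limma adjusted p = 0.00282), with transgenic pools at 29.5, 29.7 and 29.5 CPM against 42.5 and 41.6 CPM. *Unc5b*, a netrin receptor of endothelial cells, rose by 0.34 on the log2 scale (limma adjusted p = 0.0225), from 190 and 180 CPM to 260, 233 and 209 CPM. *Epha4*, an Eph receptor, was at 17.5, 18.9 and 24.5 CPM against 28.7 and 26.7 CPM and did not pass the threshold (limma adjusted p = 0.0662).

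**Figure D5:**
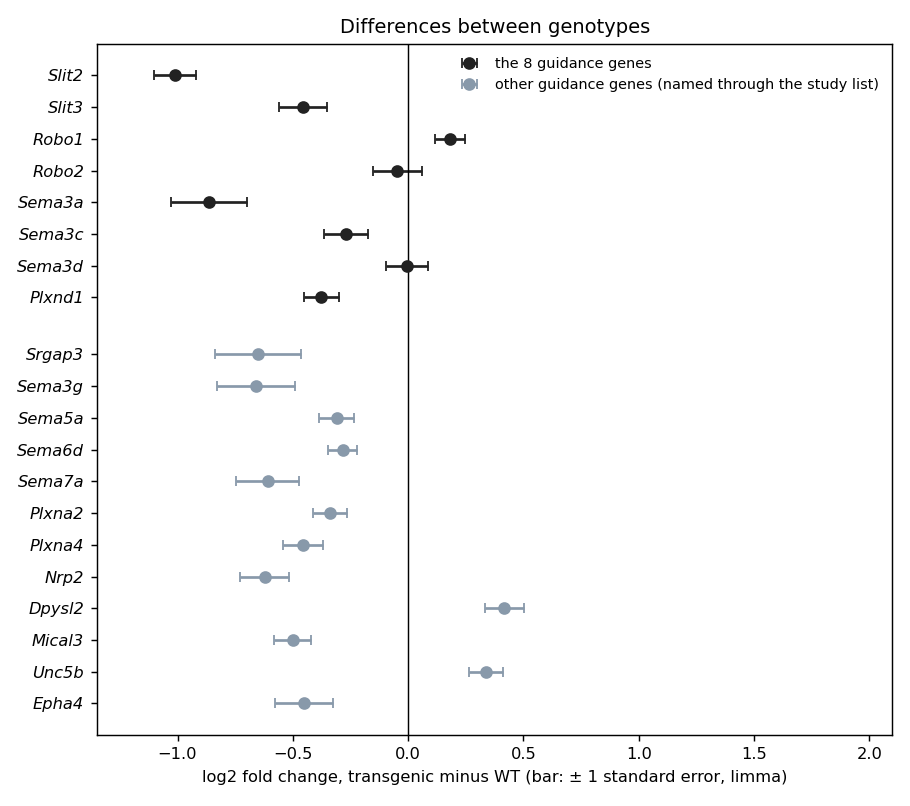
Log2 difference between genotypes (transgenic minus WT) with ± 1 standard error from limma, for the 8 guidance genes (black) and the 12 other guidance genes with a paired identifier (grey). *Slit2* and *Sema3a* lie farthest below 0 at -1.01 and -0.86, and *Robo1*, *Dpysl2* and *Unc5b* lie above 0.

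Genes with the most similar pattern over the 5 libraries were looked for among 11475 genes with a mean of at least 5 CPM. Likeness was the root mean square distance between log2 values, each centred on the mean of the gene, and only genes with a paired name are given. The values were not scaled, so the distance follows mainly the log2 difference between genotypes. The median over all genes is likewise large for a gene with a large difference. For *Slit2* the 3 nearest were *Slc16a12*, *Gpr126* and *Angpt1*, at distances of 0.0982, 0.102 and 0.106, against a median distance of 0.524 over all genes. These 3 were also the 3 nearest of all genes, named or not. *Angpt1*, which encodes a ligand of the Tie2 receptor, had 21.6, 18.4 and 24.1 CPM in transgenic hearts against 50.01 and 49.7 CPM in WT.

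For *Sema3a* the nearest named genes were *Kcnj12*, *Gpr126* and *Myh11*, at distances of 0.114, 0.135 and 0.149 against a median of 0.509. Counting genes with and without a name, 2 were nearer than *Gpr126* and 3 nearer than *Myh11*. *Gpr126*, an adhesion receptor, was thus near both *Slit2* and *Sema3a*, and had 35.0, 25.7 and 41.9 CPM in transgenic hearts against 69.6 and 68.8 CPM in WT. For *Plxnd1* the nearest named genes were *Srcap*, *Tspan18* and the endothelial gene *Tie1*, at 0.0196, 0.0326 and 0.0409 against a median of 0.235. Here 4 genes were nearer than *Tspan18* and 8 nearer than *Tie1*. All these names come from the study's list of changed genes, so the kinds of genes named were limited by that list. Among the 8 genes themselves, *Slit3* and *Plxnd1* were the closest pair, at 0.1003, and *Slit2* and *Robo1* the farthest apart, at 0.610, while *Slit2* and *Sema3a* were 0.172 apart. These distances describe 5 libraries, largely restate the log2 differences given above, and carry no test.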

How the data were processed

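RNA-seq values of E14.5 hearts were analysed for 3 transgenic and 2 WT pools of 4 hearts each. Per the labels and the methods, the authors trimmed adaptors with cutadapt, quantified genes with RSEM over GRCm38 and Ensembl genes, left out 1 WT pool and used edgeR. The strand setting of the counting is not given in the sources used here. The authors deposited CPM values of 12857 genes, and 0 columns of sample values were left unused. CPM were divided by the step of each library to give reads, and 100% came out whole within 0.02 of a read.

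The main test was limma (version 3.58.1, run in R 4.3.3, eBayes with trend) on log2(CPM + 0.5), without covariates, adjusted over all genes by Benjamini-Hochberg with a threshold of 0.05. Requiring a value of 1 or more in 2 or more libraries removed 0 genes. Each pool holds separate embryos. Standard errors and p-values combine a gene's spread between these pools with the spread of other genes of like level. They are therefore not the gene's own spread alone. Intervals are 95% Wilson for shares and exact Poisson for reads. Python 3.11.15 (with numpy 2.4.6, pandas 2.3.3, scipy 1.17.1 and matplotlib 3.10.9) was used for summaries and figures. The design had foreseen count tests as alternatives, but the unit of the values was taken as CPM and these were not run.

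The genes and lists were chosen with earlier results of these data known. The rule for named genes took the 8 genes, every other guidance gene past the threshold and the highest-valued one per list that was not, *Bmp2*, the 3 genes nearest to *Slit2*, *Sema3a* and *Plxnd1*, and the highest-valued gene per marker list. *Kdr* and *Rgs5* are named because they enter the sums. Names were paired through the study's list of 406 changed genes, which also holds fold changes and p-values that were not used. Positions came from RefSeq for GRCm38.p6.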

Additional observations from a re-analysis of the deposited data

How the results depend on the processing

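Alternatives changed the pseudocount (0.1 or 1), the filter (off, or a mean of 5 CPM or more), the variance trend (off), the scaling (quantile, or equal totals), the pool number (a replicate block) and the pools (single pools omitted). The planned edgeR, DESeq2 and TMM alternatives were not run. With a WT pool left out, the lone WT pool was assumed to vary like the transgenic pools, and these calls were added after the data were seen (only the differences had been planned). Over all genes 362 were called, 10 without the variance trend, 655 with the replicate block, and 43 to 464 with 1 pool left out. Of the 8 guidance genes 4 were called, 0 without the trend, and 1 to 4 with 1 pool left out. Of the 12 others 10 were called, 0 without the trend, 8 with quantile normalization, 12 with the block, and 0 to 11 with 1 pool left out. Fewer samples or another variance estimate are the construction of these settings, and the cause of each lost call was not tested further. With 1 pool left out the log2 difference lay between -0.60 and -0.32 for *Slit3*, -0.12 and 0.0297 for *Robo2*, -0.34 and -0.20 for *Sema3c*, and -0.14 and 0.13 for *Sema3d*, and moved by less than the spread between pools for *Slit2*, *Robo1*, *Sema3a* and *Plxnd1*. In the other 8 settings no log2 difference of the 8 genes moved by more than that spread. The block takes transgenic pool 3 out of the estimate, since no WT pool has that number, and the log2 difference of *Sema3a* was -0.997 under it. The labels tie pools with the same number by nothing but that number. The correlation of their deviations from the genotype means was -0.0259 for pools 1 and -0.0499 for pools 2. With 2 WT pools the WT deviations mirror each other, so these values cannot show whether such pools were handled together. With 3 pools against 2, differences near the median standard error of 0.09 were not detectable.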

Other observations

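*Plxnd1* and *Srgap3* lie on chromosome 6 within 2.88 and 0.120 megabases of *Gt(ROSA)26Sor* (113067428 to 113077244 of GRCm38.p6), the locus that carries the *Bmp2* transgene. Of 386 named genes of the study's list with a RefSeq position, 4 lie within 5 megabases of that locus (1.04%), against 85 of 21900 protein-coding RefSeq genes (0.388%). The 4 are *Plxnd1*, *Srgap3*, *Cxcl12* and *Itpr1*, and all 4 had lower values in transgenic hearts. Most genes of the list were lower as well, so the shared direction alone does not set these genes apart. The study's list was made from these libraries, this count was chosen after the positions were seen, and whether the position bears on the values was not tested.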
